A study of Arabidopsis thaliana with 12 samples.

Results

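The Aux/IAA and GH3 genes of Arabidopsis thaliana are described here across a cold time course: 36 genes, of which 29 encode Aux/IAA repressors and 7 encode GH3 enzymes, of 25383 loci that a probe of the array could be matched to. They are the genes of these families, taken by their locus codes. A probe was assigned to a gene where the accession or locus given for it in the array files led to one of the 36 locus codes. At least 1 matched probe was found for 33 of the 36, and IAA9 (AT5G65670), IAA15 (AT1G80390) and IAA32 (AT2G01200) were not analysed here. GH3.4 (AT1G59500) was not well above background on any array and was not tested. This left 32 tested genes, 26 Aux/IAA and 6 GH3, among 20806 tested in all, and 31 of the 32 were well above background on all 12 arrays.

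Auxin is perceived by the TIR1/AFB proteins, F-box receptors that bind the hormone together with an Aux/IAA protein and send that protein to degradation. While it lasts, the Aux/IAA protein holds auxin response factors (ARFs) in check through TOPLESS corepressors, and many Aux/IAA genes are themselves rapidly induced by auxin, which closes a negative feedback loop. The GH3 enzymes described here join indole-3-acetic acid to amino acids and so lower free auxin, and several of their genes are also auxin-induced, so both families are widely used as readouts of auxin response.

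The study compared wild type of the Col ecotype, untransformed, with plants that overexpress RDM4, a nuclear protein known from RNA-directed DNA methylation, from the 35S promoter, which is active in most plant tissues. How many independent overexpression lines went into a sample is not stated in the labels. Seedlings of both genotypes were 2 weeks old and had grown on MS plates at 23 °C by day and 18 °C by night with 16 h of light and 8 h of dark. They were sampled before the transfer (0 h) or after 3 h or 48 h at 4 °C. Each of the 6 combinations had 2 arrays, called biological replicates in the labels, each made from leaf RNA pooled over 30 seedlings or more of a plate. Seedlings kept at growth temperature for the same 3 h or 48 h were not among the samples, nor do the labels give a clock time, so chilling and time of day cannot be told apart. With 2 samples a group, each p-value measures only the spread between these samples.

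Signal was 1-colour (Cy3) intensity. Each array was scaled to its own 75th percentile, which lay between 2709 and 5665 intensity units, and every level below is the log2 of the signal relative to that percentile, so that 0 means a signal equal to it. Levels are compared within a gene only. Between 73.3% and 76.7% of the probes were well above background on an array, no spot was saturated, and replicates correlated at 0.9956 to 0.997 over all genes tested. A gene was called where its adjusted p in limma, fitted on all genes, lay below 0.05. The labels held up: RDM4 was higher in the overexpressors by 5.46 at 0 h, 5.70 at 3 h and 5.46 at 48 h (log2), the cold regulator CBF3 rose by 8.62 in wild type at 3 h, and COR15A, a cold-induced chloroplast protein gene, by 5.82 at 48 h. All 5 leaf markers were well above background on all 12 arrays, and so were all 7 root markers (COBL9, EXPA7, CASP1, CASP2, MYB36, PHT1;1 and WOX5), although the tissue is labelled leaf. Of 3 shoot meristem markers, STM was above background throughout, and WUS and CLV3 were not.

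Of the 32 genes in wild type, 24 were called at 3 h and 22 at 48 h against 0 h, beside 14162 and 16382 of all 20806 genes, and the Aux/IAA genes went both ways. In wild type at 3 h, 14 of 32 were higher and 10 lower than at 0 h, against 30.9% higher and 37.2% lower of all genes tested, and the median log2 change of the 32 was 0.03 (all genes -0.04). At 48 h the balance lay below 0 h: 6 were higher and 16 lower, against 39.7% and 39.0% of all genes, with a median of -0.19 (all genes 0.00). From 3 h to 48 h, 7 rose and 22 fell, against 41.0% and 35.1% of all genes, with a median of -0.29 (all genes 0.04). The shares of the 32 that fell from 3 h to 48 h (68.8%) and from 0 h to 48 h (50%) therefore lay above the shares of all genes, and the shares that rose (21.9% and 18.8%) lay below them.

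The 2 families are counted apart here, and a difference between them was not tested. Of all genes in wild type, 30.9% were higher and 37.2% lower at 3 h, and 39.7% were higher and 39% lower at 48 h. Of 26 Aux/IAA genes in wild type, 13 were higher and 6 lower at 3 h, and 4 were higher and 13 lower at 48 h. Of 6 GH3 genes, 1 was higher and 4 lower at 3 h, and 2 were higher and 3 lower at 48 h. Sorted by both times in wild type, 4 Aux/IAA genes were higher at 3 h and lower at 48 h (IAA5, IAA6, IAA17 and IAA34), 5 were higher at 3 h and not called at 48 h (IAA1, IAA3, IAA13, IAA14 and IAA30), 4 were higher at both times (IAA10, IAA12, IAA28 and IAA33), and 5 were lower at both times (IAA2, IAA7, IAA16, IAA29 and IAA31). A further 4 were lower at 48 h alone by the calls (IAA4, IAA18, IAA19 and IAA20), IAA27 was lower at 3 h and not called at 48 h, and IAA8, IAA11 and IAA26 were called at neither time.

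**Figure D1:**
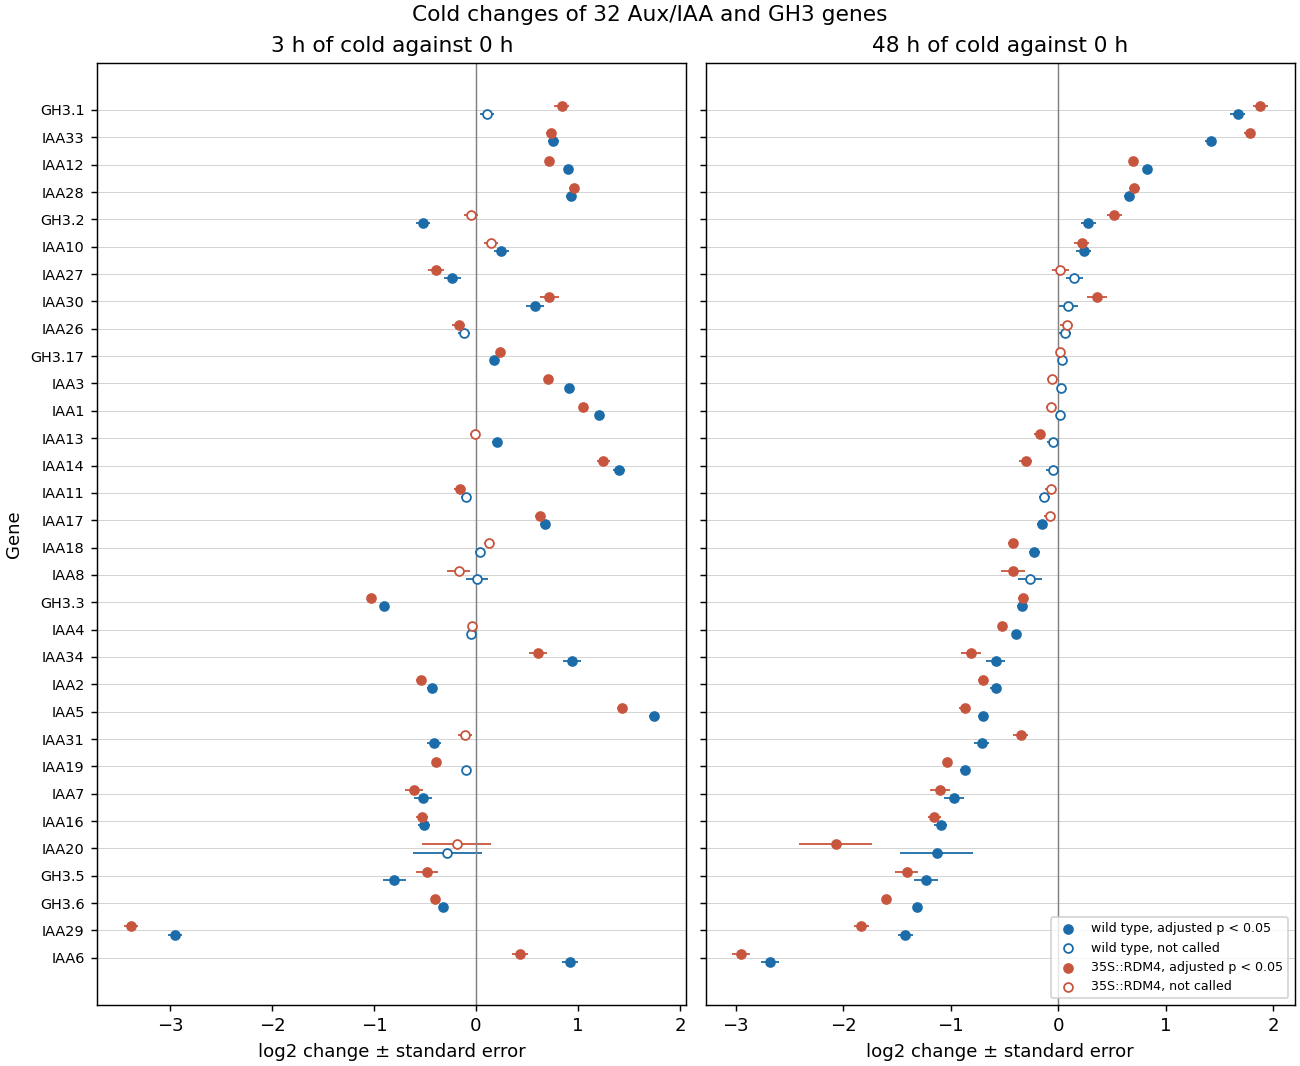
Log2 change from 0 h with its standard error for the 32 tested genes, ordered by the wild-type change at 48 h, after 3 h (left) and 48 h (right) at 4 °C in wild type (blue) and 35S::RDM4 (red). Filled points have a limma adjusted p below 0.05. IAA29 lies lowest at 3 h (-2.95 in wild type), IAA6 lowest at 48 h (-2.68), and the points of both genotypes lie close together for most genes.

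The close relatives IAA5, IAA6 and IAA19 are auxin-induced genes, and IAA19 (also called MSG2) is known for its part in the bending of hypocotyls. IAA5 (AT1G15580) had levels of -2.70 and -2.81 on the wild-type arrays at 0 h, -1.0 and -1.02 at 3 h, and -3.52 and -3.39 at 48 h. In the overexpressors it had -2.39 and -2.37 at 0 h, -0.97 and -0.92 at 3 h, and -3.26 and -3.24 at 48 h. In both genotypes the 3 h arrays were the highest and the 48 h arrays the lowest, with no overlap between times. The change at 3 h was 1.75 ± 0.05 (SE) in wild type (limma, adjusted p = 2.61e-08) and 1.43 ± 0.05 in the overexpressors, and from 3 h to 48 h the fall was -2.44 ± 0.05 and -2.30 ± 0.05.

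IAA6 (AT1G52830, also called SHY1) stood at -2.59 on both wild-type arrays at 0 h, at -1.65 and -1.70 at 3 h and at -5.38 and -5.16 at 48 h. The overexpressor arrays read -2.26 and -2.19 at 0 h, -1.76 and -1.81 at 3 h, and -5.28 and -5.06 at 48 h. It was thus high at 3 h and far below its starting level at 48 h in both genotypes, without overlap. The rise at 3 h was 0.92 ± 0.08 in wild type (adjusted p = 2.11e-05) and 0.43 ± 0.08 in the overexpressors. Between 3 h and 48 h it changed by -3.60 ± 0.08 and -3.38 ± 0.08, the widest fall among the 32 genes in each genotype, and the fall from 0 h to 48 h was -2.79 on one wild-type slide and -2.57 on the other.

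IAA19 (AT3G15540) did not share the rise at 3 h. Its wild-type levels were -0.48 and -0.50 at 0 h, -0.59 and -0.58 at 3 h, and -1.32 and -1.40 at 48 h, a change of -0.10 ± 0.04 at 3 h (adjusted p = 0.0678) and -0.87 ± 0.04 at 48 h (adjusted p = 2.34e-07). Overexpressor levels were -0.21 and -0.20, then -0.57 and -0.62, then -1.28 and -1.19, falling by 0.39 at 3 h (adjusted p = 5.76e-05) and by 1.03 at 48 h. Only the 48 h arrays stood well apart in wild type, whereas the overexpressor arrays stepped down at each time.

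IAA7 (AXR2), IAA14 (SLR), IAA16 and IAA17 (AXR3) form another group of close relatives, and gain-of-function mutants of IAA7, IAA14 and IAA17 are auxin resistant, that of IAA14 lacking lateral roots. The group split in the cold. IAA14 (AT4G14550) rose in wild type from -1.02 and -0.91 at 0 h to 0.42 and 0.44 at 3 h and was back at -1.0 and -1.03 at 48 h. In the overexpressors it went from -0.39 and -0.56 to 0.75 and 0.81 and then to -0.81 and -0.73. The 3 h arrays stood above all others in each genotype, and the 48 h arrays overlapped those at 0 h in wild type but not in the overexpressors. The rise was 1.40 ± 0.06 in wild type (adjusted p = 3.2e-07) and 1.25 ± 0.06 in the overexpressors, and the change at 48 h was -0.05 ± 0.06 (adjusted p = 0.49) and -0.30 ± 0.06 (adjusted p = 0.00263). IAA17 (AT1G04250) likewise rose at 3 h, by 0.68 ± 0.05 in wild type and 0.63 ± 0.05 in the overexpressors, and at 48 h was at -0.15 ± 0.05 (called) and -0.08 ± 0.05 (not called) relative to 0 h. The other probe of IAA17 gave -0.38 in wild type and -0.36 in the overexpressors at 48 h.

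IAA16 (AT3G04730) and IAA7 (AT3G23050) fell instead. IAA16 levels were 4.03 and 3.83 at 0 h, 3.45 and 3.38 at 3 h, and 2.80 and 2.87 at 48 h in wild type, and 3.99 and 3.96, then 3.43 and 3.46, then 2.81 and 2.85 in the overexpressors. The arrays stepped down from time to time without overlap, and the change at 48 h was -1.09 ± 0.06 in wild type (adjusted p = 6.53e-07) and -1.15 ± 0.06 in the overexpressors. IAA7 had wild-type levels of 2.48 and 2.29, then 1.95 and 1.77, then 1.48 and 1.34, and overexpressor levels of 2.34 and 2.41, then 1.81 and 1.72, then 1.33 and 1.21. It too fell at each step, to -0.97 ± 0.09 at 48 h in wild type (adjusted p = 1.24e-05) and -1.10 ± 0.09 in the overexpressors. The other probe of IAA7 gave a larger fall, -1.41 in wild type and -1.44 in the overexpressors at 48 h.

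IAA1 (AXR5), IAA2, IAA3 (SHY2, which links cytokinin to auxin in the root meristem) and IAA4 are a further set of relatives. IAA1 (AT4G14560) stood at -0.34 and -0.32 at 0 h in wild type, at 0.92 and 0.85 at 3 h and at -0.29 and -0.32 at 48 h, and in the overexpressors at -0.12 and -0.10, then 0.98 and 0.89, then -0.22 and -0.14. The 3 h arrays were high in both genotypes and the 48 h arrays lay at or near the 0 h level. Its rise was 1.21 ± 0.04 in wild type (adjusted p = 8.79e-08) and 1.05 ± 0.04 in the overexpressors, and at 48 h it was at 0.02 ± 0.04 and -0.07 ± 0.04, neither called. IAA3 (AT1G04240) followed the same course, at 0.91 ± 0.04 and 0.71 ± 0.04 after 3 h and 0.03 ± 0.04 and -0.06 ± 0.04 after 48 h. IAA2 (AT3G23030) fell instead, to -0.58 ± 0.05 in wild type and -0.70 ± 0.05 in the overexpressors at 48 h, and IAA4 (AT5G43700), not called at 3 h in either genotype, was at -0.39 ± 0.03 and -0.52 ± 0.03 at 48 h.

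These courses put neighbours on the chromosome side by side. In the RefSeq annotation 3 pairs of members have 0 protein-coding genes between them. They are IAA3 with IAA17, IAA2 with IAA7 and IAA14 with IAA1. Within each pair both genes were called in the same direction at 3 h in both genotypes. IAA3 and IAA17 rose at 3 h, as did IAA14 and IAA1, while IAA2 and IAA7 fell. Of all genes at 3 h, 30.9% were higher and 37.2% lower in wild type, and 32.9% and 37.1% in the overexpressors. The share of all adjacent gene pairs that were called alike was not counted. At 48 h against 0 h, IAA2 and IAA7 alone of the pairs were both called, lower in each genotype. The pairs cross the groups of close relatives, so that IAA7 and IAA14, which are relatives, moved in opposite directions. Probe sequences were not at hand, so whether a probe also reads a paralogue was not tested.

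**Figure D2:**
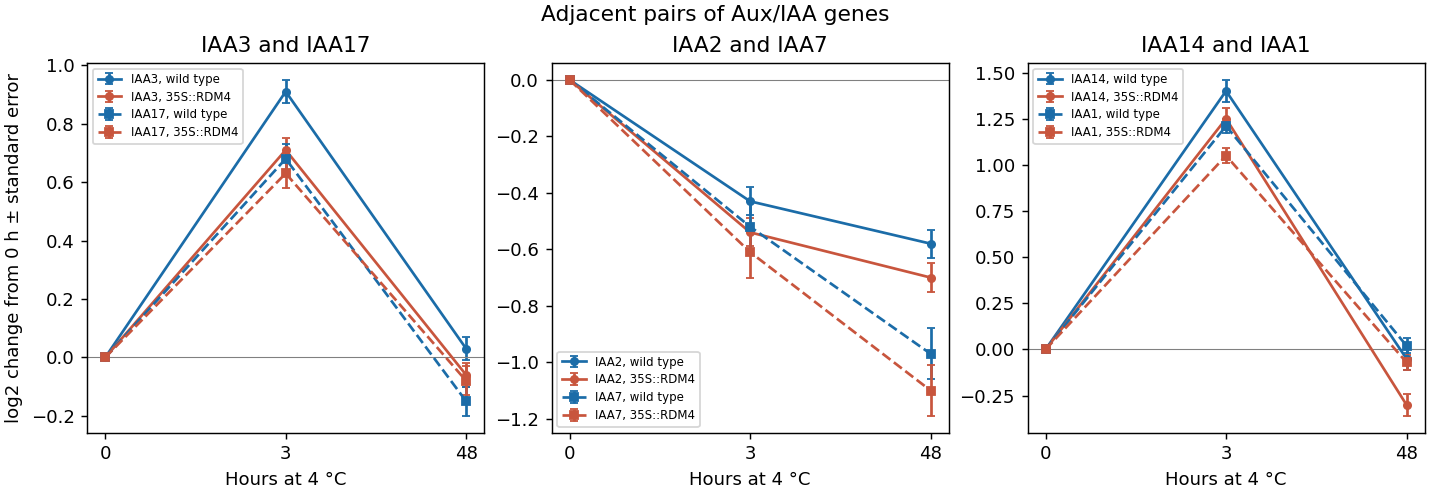
Log2 change from 0 h with its standard error at 3 h and 48 h for the 3 adjacent pairs of Aux/IAA genes in wild type (blue) and 35S::RDM4 (red), with the pair's genes as solid and dashed lines. IAA14 and IAA1 peak at 3 h (1.40 and 1.21 in wild type), as do IAA3 and IAA17, whereas IAA2 and IAA7 fall to -0.58 and -0.97 at 48 h in wild type.

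IAA29 is a known target of phytochrome-interacting factors (PIFs) in shade and warmth. IAA29 (AT4G32280) fell the furthest of the 32 genes at 3 h and then partly recovered. Wild-type levels were -1.94 and -1.83 at 0 h, -4.88 and -4.78 at 3 h, and -3.34 and -3.27 at 48 h. Those of the overexpressors were -1.60 and -1.59, then -4.87 and -5.09, then -3.42 and -3.43. The 3 h arrays were the lowest and the 48 h arrays lay between the others, with no overlap. IAA5 moved the other way at 3 h, and at 48 h both genes lay below their 0 h levels. The change of IAA29 at 3 h was -2.95 ± 0.07 in wild type (adjusted p = 9.46e-09) and -3.38 ± 0.07 in the overexpressors. Its recovery from 3 h to 48 h was 1.53 ± 0.07 and 1.55 ± 0.07. On each wild-type slide the fall at 3 h was -2.95.

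IAA10 to IAA13 include IAA12 (BDL), the repressor of the response factor MONOPTEROS in the embryo. IAA12 (AT1G04550) was raised at both times, by 0.90 ± 0.04 at 3 h and 0.83 ± 0.04 at 48 h in wild type and by 0.72 ± 0.04 and 0.70 ± 0.04 in the overexpressors. IAA10 (AT1G04100) was at 0.25 ± 0.07 and 0.24 ± 0.07 in wild type, both called. IAA13 (AT2G33310) was at 0.21 ± 0.05 at 3 h in wild type (called) and at -0.17 ± 0.05 at 48 h in the overexpressors (called), and IAA11 (AT4G28640) was called only once among the cold comparisons, at -0.16 ± 0.05 after 3 h in the overexpressors.

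IAA28, a repressor known from lateral root founder cells, rose with IAA12. IAA28 (AT5G25890) was higher by 0.93 ± 0.05 at 3 h and 0.66 ± 0.05 at 48 h in wild type, and by 0.96 ± 0.05 and 0.71 ± 0.05 in the overexpressors. Its relatives moved less: IAA18 (AT1G51950) was at -0.22 ± 0.05 and -0.42 ± 0.05 at 48 h, and IAA26 (AT3G16500), known as an interactor of a viral replicase, was called at 3 h in the overexpressors alone (-0.17 ± 0.06). The 3 probes of IAA18 ranged from -0.24 to -0.22 in wild type and from -0.42 to -0.11 in the overexpressors at 48 h. In wild type at 3 h they ranged from 0.04 to 0.32. IAA27 (AT4G29080) was lower at 3 h, at -0.23 ± 0.08 in wild type and -0.39 ± 0.08 in the overexpressors, and not called at 48 h. IAA8 (AT2G22670) was called against 0 h only in the overexpressors at 48 h (-0.42 ± 0.11).

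The noncanonical Aux/IAA proteins, IAA20, IAA30, IAA31, IAA33 and IAA34, lack or have an altered degron, the stretch that the receptors bind. Their genes were dim here and went in different directions. IAA33 (AT5G57420) stood in wild type at -5.76 and -5.73 at 0 h, at -5.03 and -4.95 at 3 h and at -4.27 and -4.37 at 48 h, and in the overexpressors at -5.99 and -6.03, then -5.20 and -5.34, then -4.21 and -4.24. It rose at each step in both genotypes, without overlap, against the direction of most of the Aux/IAA genes called at 48 h. The change at 48 h was 1.42 ± 0.05 in wild type (adjusted p = 6.16e-08) and 1.78 ± 0.05 in the overexpressors. With a normexp background correction of the median signal the wild-type value was 0.59 and was no longer called (adjusted p = 0.069), as was the value at 3 h (0.13, adjusted p = 0.682).

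IAA34 (AT1G15050) had wild-type levels of -5.61 and -5.69, then -4.69 and -4.74, then -6.12 and -6.35, and overexpressor levels of -5.58 and -5.31, then -4.81 and -4.85, then -6.26 and -6.24. It was high at 3 h and low at 48 h in both genotypes, by 0.94 ± 0.09 and -0.58 ± 0.09 in wild type (adjusted p = 3.76e-05 and 0.000491) and by 0.61 ± 0.09 and -0.81 ± 0.09 in the overexpressors. Under the normexp correction the wild-type values were 0.27 and -0.63 (adjusted p = 0.408 and 0.058) and those of the overexpressors 0.41 and -0.38 (adjusted p = 0.212 and 0.224), none of them called.

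IAA20 (AT2G46990), close to the background, was well above it on 9 arrays, of which 1 was a wild-type array at 48 h and 0 were overexpressor arrays at 48 h. Its levels in wild type were -5.75 and -6.01, then -6.05 and -6.27, then -6.78 and -7.25, and in the overexpressors -6.19 and -5.97, then -6.26 and -6.28, then -8.76 and -7.54. The 48 h arrays were the lowest of each genotype. For a fold, the overexpressor side at 48 h was set at the lowest signal among probes well above background. With that setting IAA20 was there 1.97-fold lower than at 0 h and 1.73-fold lower than at 3 h. A probe that is not well above background may still lie above that signal, so these folds are not strict minima. The limma test against 0 h (adjusted p = 0.000505) used the measured levels and does not test these folds. Under the normexp correction neither fall was called in limma (-0.59, adjusted p = 0.111, against 0 h and -0.55, adjusted p = 0.141, against 3 h). In wild type its change at 48 h was -1.13 ± 0.34 (adjusted p = 0.014), and this call was lost without the first 0 h array (-1.01, adjusted p = 0.0704) or without the second 48 h array (-0.90, adjusted p = 0.0846). With the deposited value table it was lost at a smaller change (-0.42, adjusted p = 0.0692).

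IAA30 (AT3G62100), an early target of the embryo regulator LEC2, rose at 3 h by 0.58 ± 0.09 in wild type and 0.72 ± 0.09 in the overexpressors and at 48 h was at 0.09 ± 0.09 (not called) and 0.36 ± 0.09 (called). IAA31 (AT3G17600) was lower in wild type, at -0.41 ± 0.07 and -0.71 ± 0.07, and in the overexpressors at -0.11 ± 0.07 (not called) and -0.35 ± 0.07 (called).

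**Figure D3:**
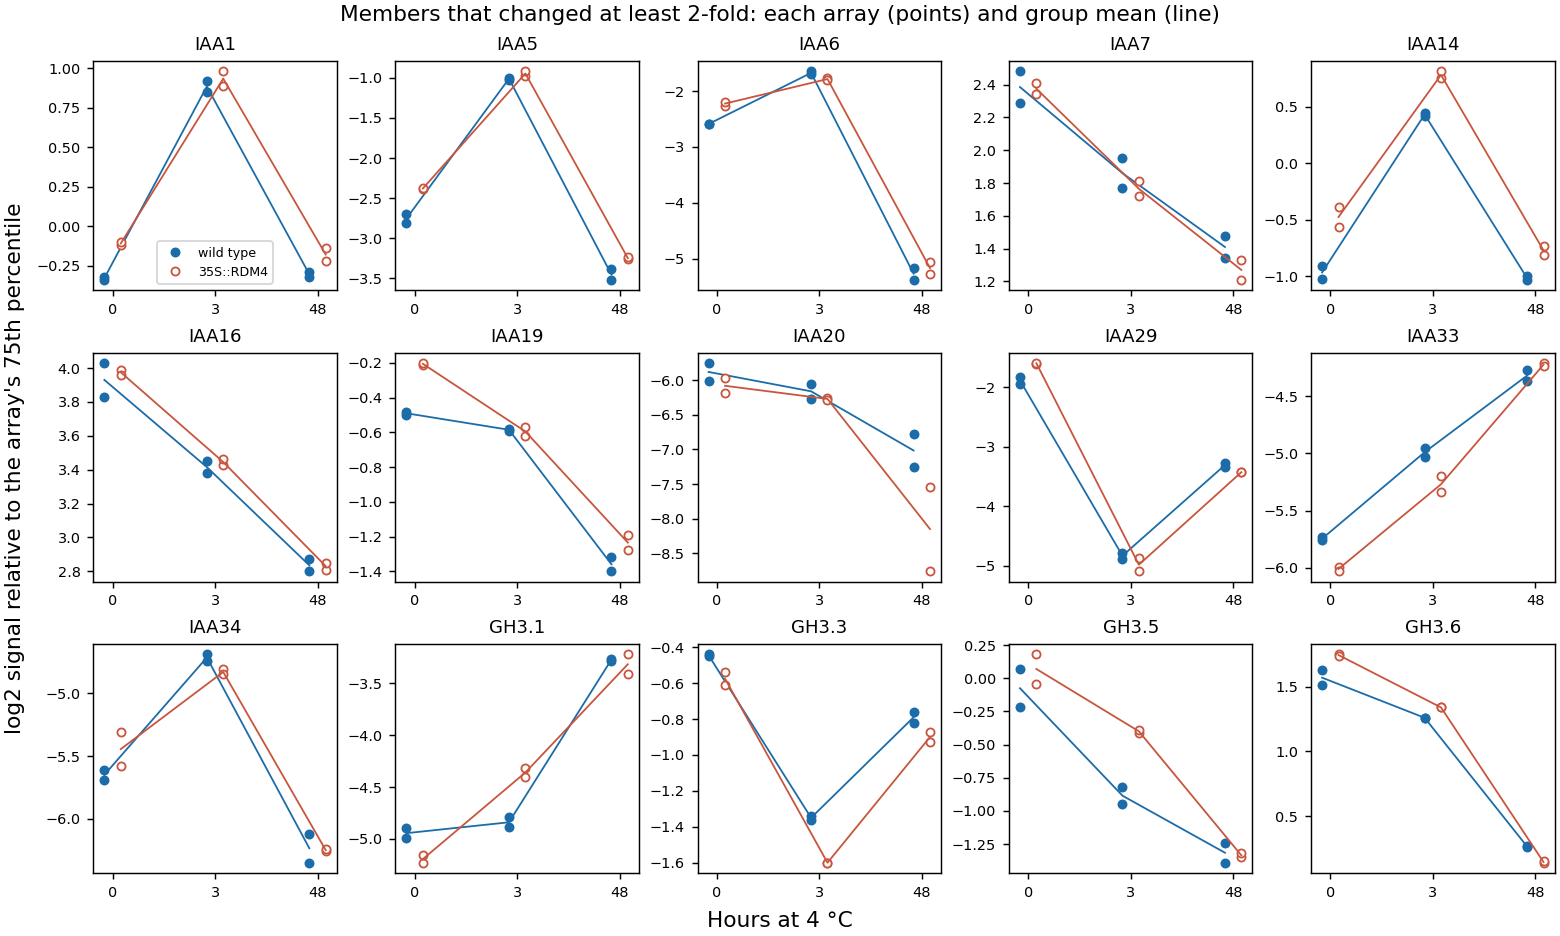
Level on each array (log2 signal relative to the array's 75th percentile) against hours at 4 °C for the 15 genes that were called with a change of at least 1 on the log2 scale, with wild type as filled blue and 35S::RDM4 as open red points and lines through the group means. IAA1, IAA5, IAA6, IAA14 and IAA34 peak at 3 h, IAA29 and GH3.3 dip at 3 h, and IAA33 and GH3.1 are highest at 48 h.

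GH3.6 (DFL1) and GH3.5 (WES1) are auxin conjugases whose overexpression dwarfs the plant, and GH3.5 also accepts salicylic acid. GH3.6 (AT5G54510) fell in 2 steps, from 1.63 and 1.51 at 0 h to 1.26 on both arrays at 3 h and to 0.26 and 0.27 at 48 h in wild type. The overexpressor arrays read 1.75 and 1.74, then 1.34 on both, then 0.14 and 0.15. No arrays of different times overlapped, and the fall at 48 h was -1.31 ± 0.04 in wild type (adjusted p = 1.8e-08) and -1.60 ± 0.04 in the overexpressors (adjusted p = 6.43e-09). GH3.5 (AT4G27260) had wild-type levels of 0.07 and -0.22, then -0.82 and -0.95, then -1.24 and -1.39, and overexpressor levels of 0.18 and -0.04, then -0.41 and -0.39, then -1.35 and -1.32. It fell at both times without overlap, by -0.80 ± 0.11 and -1.23 ± 0.11 in wild type and by -0.48 ± 0.11 and -1.41 ± 0.11 in the overexpressors. Both of its probes fell, the other one to -1.04 at 48 h in wild type.

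GH3.3 (AT2G23170), which acts with GH3.5 and GH3.6 in adventitious rooting, took another course. In wild type it went from -0.45 and -0.44 at 0 h to -1.36 and -1.34 at 3 h and came back to -0.82 and -0.76 at 48 h. In the overexpressors it went from -0.61 and -0.54 to -1.60 on both arrays and to -0.87 and -0.93. The 3 h arrays were the lowest and the 48 h arrays lay between, as for IAA29. The change at 3 h was -0.90 ± 0.04 in wild type (adjusted p = 2.23e-07) and -1.03 ± 0.04 in the overexpressors, and at 48 h -0.34 ± 0.04 and -0.33 ± 0.04.

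GH3.1 (AT2G14960) went the other way from GH3.5 and GH3.6. Its wild-type levels were -4.90 and -4.99 at 0 h, -4.89 and -4.79 at 3 h, and -3.26 and -3.28 at 48 h. The overexpressor levels were -5.23 and -5.16, then -4.40 and -4.32, then -3.22 and -3.41. The 48 h arrays were the highest in both genotypes, and the 3 h arrays stood above those at 0 h with a clear gap in the overexpressors alone. The change at 48 h was 1.67 ± 0.07 in wild type (adjusted p = 9.89e-08) and 1.88 ± 0.07 in the overexpressors, and at 3 h 0.11 ± 0.07 (adjusted p = 0.208) and 0.84 ± 0.07 (adjusted p = 1.16e-05).

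GH3.2 (AT4G37390, YDK1) was lower at 3 h in wild type (-0.52 ± 0.07) and higher at 48 h (0.28 ± 0.07), and in the overexpressors it was at -0.05 ± 0.07 (not called) and 0.52 ± 0.07. The wild-type change of GH3.2 at 48 h was 0.02 under the normexp correction and was not called (adjusted p = 0.912). GH3.17 (AT1G28130), which prefers glutamate as the amino acid, moved little, by 0.18 ± 0.04 and 0.24 ± 0.04 at 3 h (both called), and was not called at 48 h. Among the 17 tested genes whose values are not given array by array, the largest absolute change in any pair of groups ranged from 0.16 to 0.96.

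The cold course in the overexpressors resembled that in wild type. At 3 h against 0 h, 13 of the 32 genes were higher and 11 lower, against 32.9% and 37.1% of all genes, with a median of -0.03. At 48 h, 7 were higher and 18 lower, against 40.8% and 38.7% of all genes, with a median of -0.31. From 3 h to 48 h, 7 rose and 21 fell, against 40.7% and 35.1% of all genes. The arrays of the genotypes are separate, so the courses can be set against each other: 20 of 32 genes were called in both genotypes at 3 h and 21 at 48 h, all of them in the same direction. Of all 20806 genes, 12064 were called in both at 3 h (11897 in the same direction) and 15145 at 48 h (15052 in the same direction). Pearson's r across the 32 genes, which are not independent replicates, was 0.959 at 3 h and 0.98 at 48 h (0.91 and 0.937 across all genes). The absolute change at 48 h was larger in the overexpressors for 24 of the 32 genes, against 11173 of all 20806, but at 3 h for 16 of the 32 and between 3 h and 48 h for 17. No slide held overexpressor arrays of both 0 h and 48 h, and both of their 48 h arrays were scanned on the second day. The median difference of the 48 h responses, overexpressors minus wild type, was -0.12, and -0.03 with slide as a block. With that block the median change at 48 h was -0.26 in the overexpressors and -0.19 in wild type. With scan day as a block, 24 genes were called at 3 h and 23 at 48 h in wild type, and 25 at each time in the overexpressors. With slide as a block, wild type had 27 calls at 3 h and 25 at 48 h, and the overexpressors had 26 and 20.

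Before the cold, several Aux/IAA genes were slightly higher in the overexpressors. At 0 h, 9 of the 32 genes were higher and 1 lower than in wild type, against 4.71% higher and 8.17% lower of all genes, and none differed by as much as 1 on the log2 scale. The 9 were IAA1, IAA3, IAA4, IAA5, IAA6, IAA14, IAA19, IAA29 and GH3.6, and the lower one was IAA33. IAA14 differed most, by 0.49 ± 0.06 (adjusted p = 0.00273), followed by IAA5 at 0.38 ± 0.05 (adjusted p = 0.00333) and IAA6 at 0.37 ± 0.08 (adjusted p = 0.027). IAA29 was at 0.29 ± 0.07, IAA19 and IAA3 at 0.28 ± 0.04 each, IAA1 at 0.22 ± 0.04, GH3.6 at 0.17 ± 0.04 and IAA4 at 0.13 ± 0.03. IAA33 was at -0.27 ± 0.05. The other probe of IAA14 gave a smaller difference, 0.26.

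Slide and scan day bear on these differences. Each scan day held 1 array of each genotype at 0 h, and the differences within the first and the second day were 0.64 and 0.35 for IAA14, 0.31 and 0.45 for IAA5, 0.33 and 0.41 for IAA6, and -0.24 and -0.30 for IAA33. At 0 h and at 3 h no slide held both genotypes, and with slide as a block 0 of the 10 calls remained at an adjusted p below 0.05 in limma (0 of the 32 genes called), in a fit that leaves 2 residual degrees of freedom. In that fit IAA14 was at 0.53, IAA19 at 0.15, IAA6 at 0.03 and IAA29 at 0.02. Leaving out single arrays gave between 4 and 12 calls, 4 without either overexpressor array at 0 h or the second wild-type array at 0 h. At 0 h the root markers were lower in the overexpressors as well. Their summed level, relative to the 75th percentile, was 9.37 to 9.60 in the overexpressors and 10.51 to 11.13 in wild type, and 6 of 7 were called lower. All 7 were well above background on all 12 arrays, though WOX5 was dim (log2 levels of -5.59 to -5.89 at 0 h). Across the other groups it was 10.81 to 11 at 3 h and 10.21 to 10.31 at 48 h in wild type, and 11.77 to 11.81 and 11.60 to 12.60 in the overexpressors. Without PHT1;1, a phosphate transporter gene that carried much of the sum, the other 6 gave 5.39 to 5.44 in the overexpressors and 6.40 to 6.69 in wild type at 0 h. These 6 overlapped between genotypes at 3 h (5.85 to 6.05 and 5.84 to 5.99) and at 48 h (5.21 to 5.75 and 5.48 to 5.54), where 1 of the 7, PHT1;1, was called higher at each time. The part of the root markers in the genotype differences was not tested, and in such pooled tissue fewer cells of a type and less RNA per cell cannot be told apart.

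At 3 h in the cold, 4 of the 32 genes were higher and 2 lower in the overexpressors, against 2.22% and 2.68% of all genes. GH3.1 and GH3.5 were each at 0.48 (SE 0.07 and 0.11, adjusted p = 0.0202 and 0.0448), IAA14 at 0.35 ± 0.06 and IAA4 at 0.14 ± 0.03, and the lower ones were IAA33 at -0.29 ± 0.05 and GH3.3 at -0.25 ± 0.04. The second probe of GH3.5 gave 0.08. With the normexp correction, the deposited value table or slide as a block, 0 of the 6 remained at the threshold in limma, where 10 of the 32 had an unadjusted p below 0.05 in the unblocked fit, and 0 remained without either wild-type array or without the second overexpressor array at 3 h. With slide as a block the differences were 0.72 for GH3.1, 0.55 for GH3.5, 0.27 for IAA14, -0.33 for IAA33 and -0.21 for GH3.3. At 48 h, 0 of the 32 genes were called in either direction in limma, against 2.60% higher and 1.11% lower of all genes, while 9 had an unadjusted p below 0.05. For IAA20 no fold is given at 48 h, since 0 of 2 overexpressor and 1 of 2 wild-type arrays were well above background.

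**Figure D4:**
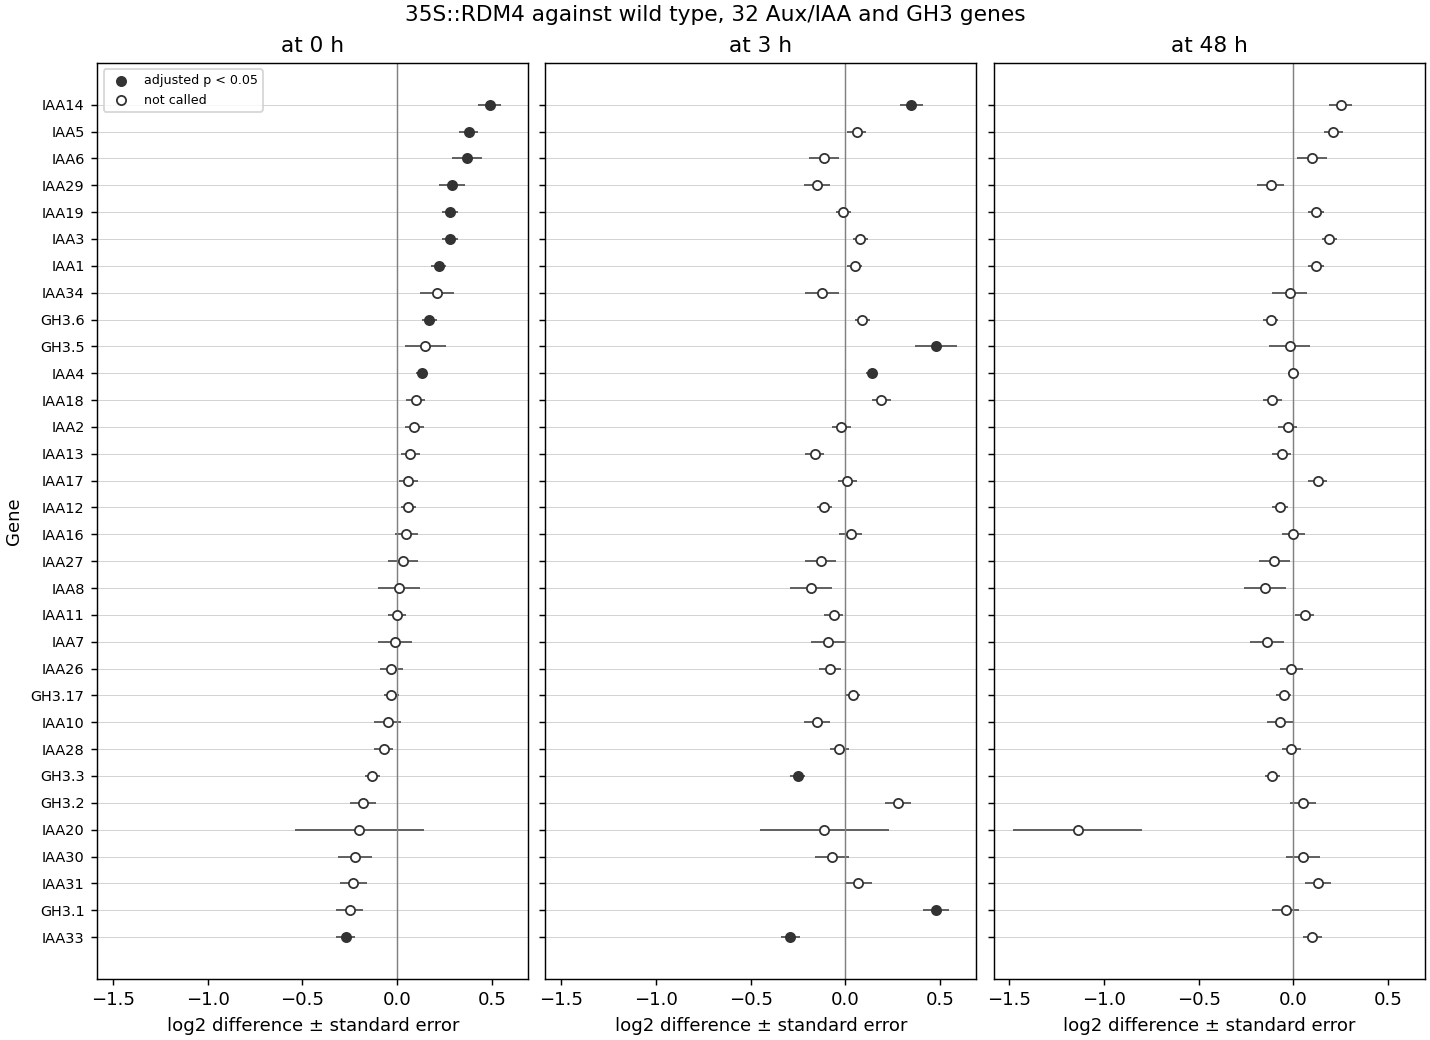
Log2 difference of 35S::RDM4 from wild type with its standard error for the 32 tested genes at 0 h, 3 h and 48 h, ordered by the difference at 0 h. Filled points have a limma adjusted p below 0.05, and they number 10 at 0 h (9 higher and 1 lower), 6 at 3 h and 0 at 48 h. The widest bars are those of IAA20.

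Whether the cold response itself differed between genotypes was tested as the difference of the changes, overexpressors minus wild type. At 3 h it was called for 6 of the 32 genes, 2 higher and 4 lower, against 4.73% and 2.61% of all genes. GH3.1 had the widest difference, 0.73 ± 0.10 (adjusted p = 0.00718): the gene rose at 3 h in the overexpressors and was not called in wild type. GH3.2 was at 0.47 ± 0.09, having fallen in wild type alone by the calls. The 4 lower ones were IAA6 at -0.48 ± 0.12, IAA29 at -0.44 ± 0.10, IAA5 at -0.31 ± 0.07 and IAA19 at -0.29 ± 0.06, and each of these also stood higher in the overexpressors at 0 h. Their levels at 3 h were not called different between genotypes (0.06 ± 0.05 for IAA5, -0.11 ± 0.08 for IAA6, -0.01 ± 0.04 for IAA19 and -0.15 ± 0.07 for IAA29). At 48 h it was called for IAA33, at 0.36 ± 0.08, and GH3.6, at -0.29 ± 0.06, 1 gene in each direction against 4.58% and 0.913% of all genes. The levels of both genes were called different between genotypes at 0 h, in the opposite direction, and not at 48 h. With slide as a block, 0 of these 8 calls remained in limma, at differences of 0.73 for GH3.1, 0.36 for GH3.2, -0.42 for IAA6, -0.32 for IAA29, -0.33 for IAA5, -0.26 for IAA19, 0.47 for IAA33 and -0.30 for GH3.6, while 12 of the 32 genes at 3 h and 10 at 48 h had an unadjusted p below 0.05 in the unblocked fit. Of the 7 root markers 5 had a called difference at 3 h and 2 at 48 h, all higher, and their part in these results was not tested.

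The rest of the auxin pathway gives the setting. The counts of each list below stand beside those of all genes in wild type. Of these, 30.9% were higher and 37.2% lower at 3 h, and 39.7% were higher and 39% lower at 48 h. Of 6 TIR1/AFB receptor genes in wild type, 1 was higher and 4 lower at 3 h, and 1 was higher and 3 lower at 48 h. TIR1 was at -0.57 ± 0.07 and -0.36 ± 0.07, AFB1 at -0.71 ± 0.04 and -0.59 ± 0.04, and AFB3 rose, by 0.21 ± 0.05 and 0.53 ± 0.05. Of 15 ARF genes, 5 were higher and 1 lower at 3 h, and 9 were higher and 1 lower at 48 h. ARF17, ARF10 and ARF8, which are microRNA targets, were at 1.28 ± 0.05, 0.80 ± 0.05 and 0.86 ± 0.07 at 48 h, ARF4 was at 1.05 ± 0.09 and ARF1 at -0.42 ± 0.06. Of 5 TOPLESS family corepressors, 1 was higher and 2 lower at 3 h, and 2 were higher and 1 lower at 48 h, TPL itself being at -0.39 ± 0.08 and then 0.02 ± 0.08 (not called).

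Of 10 auxin synthesis genes, 7 were higher and 0 lower at 3 h, and 6 were higher and 3 lower at 48 h. TAR2 and TAA1, which make the precursor indole-3-pyruvate, were at 1.18 ± 0.03 and 0.62 ± 0.04 at 3 h, and the YUCCA monooxygenase YUC8 rose by 0.94 ± 0.09 at 3 h and was at -0.37 ± 0.09 at 48 h. Transport genes went both ways, 5 of 11 higher and 4 lower at 3 h and 6 higher and 3 lower at 48 h. PIN5, a carrier of the endoplasmic reticulum, rose by 1.36 ± 0.07 and 1.53 ± 0.07, and the efflux carrier PIN7 was at -0.90 ± 0.07 and -0.93 ± 0.07. Of 10 further turnover genes, 2 were higher and 5 lower at 3 h, and 1 was higher and 7 lower at 48 h. DAO2, of the auxin oxidase family, rose by 0.70 ± 0.04 at 3 h and was at -3.04 ± 0.04 at 48 h, IAMT1, which methylates auxin, went from 1.09 ± 0.03 to -0.83 ± 0.03, and ILL6, an amidohydrolase, was at -0.04 ± 0.07 (not called) and -2.58 ± 0.07. DAO2 and IAMT1 were higher at 3 h and lower at 48 h, as were IAA5 and IAA6, a match picked out after the values were seen. The share of all genes with this course was not counted. DAO1, also on the list, had mean wild-type levels of -3.79 at 0 h, -3.87 at 3 h and -3.87 at 48 h.

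Some of the other GH3 genes looked at act mainly on other acids. PBS3 (GH3.12), needed for salicylic acid synthesis, rose by 0.62 ± 0.08 and 2.97 ± 0.08 in wild type, JAR1 (GH3.11), which conjugates jasmonate, was at 0.45 ± 0.05 and 0.09 ± 0.05 (not called), GH3.10 was at 1.88 ± 0.04 and 0.62 ± 0.04, and GH3.9 was at 0.17 ± 0.13 (not called) and -1.05 ± 0.13. The list held 5 growth-related SAUR genes, of a family with several auxin-induced members, and other SAUR genes were not looked at. All 5 were lower at 48 h in wild type, against 39% of all genes, with 2 higher and 2 lower at 3 h. SAUR19 was at -0.69 ± 0.07 and -1.86 ± 0.07, and SAUR9 rose by 1.85 ± 0.04 at 3 h and was at -0.23 ± 0.04 at 48 h. Of 5 PIF genes, 1 was higher and 4 lower at 48 h, PIF4 at -0.61 ± 0.07 and -1.78 ± 0.07 and PIF7 at 0.96 ± 0.03 and 0.57 ± 0.03.

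**Figure D5:**
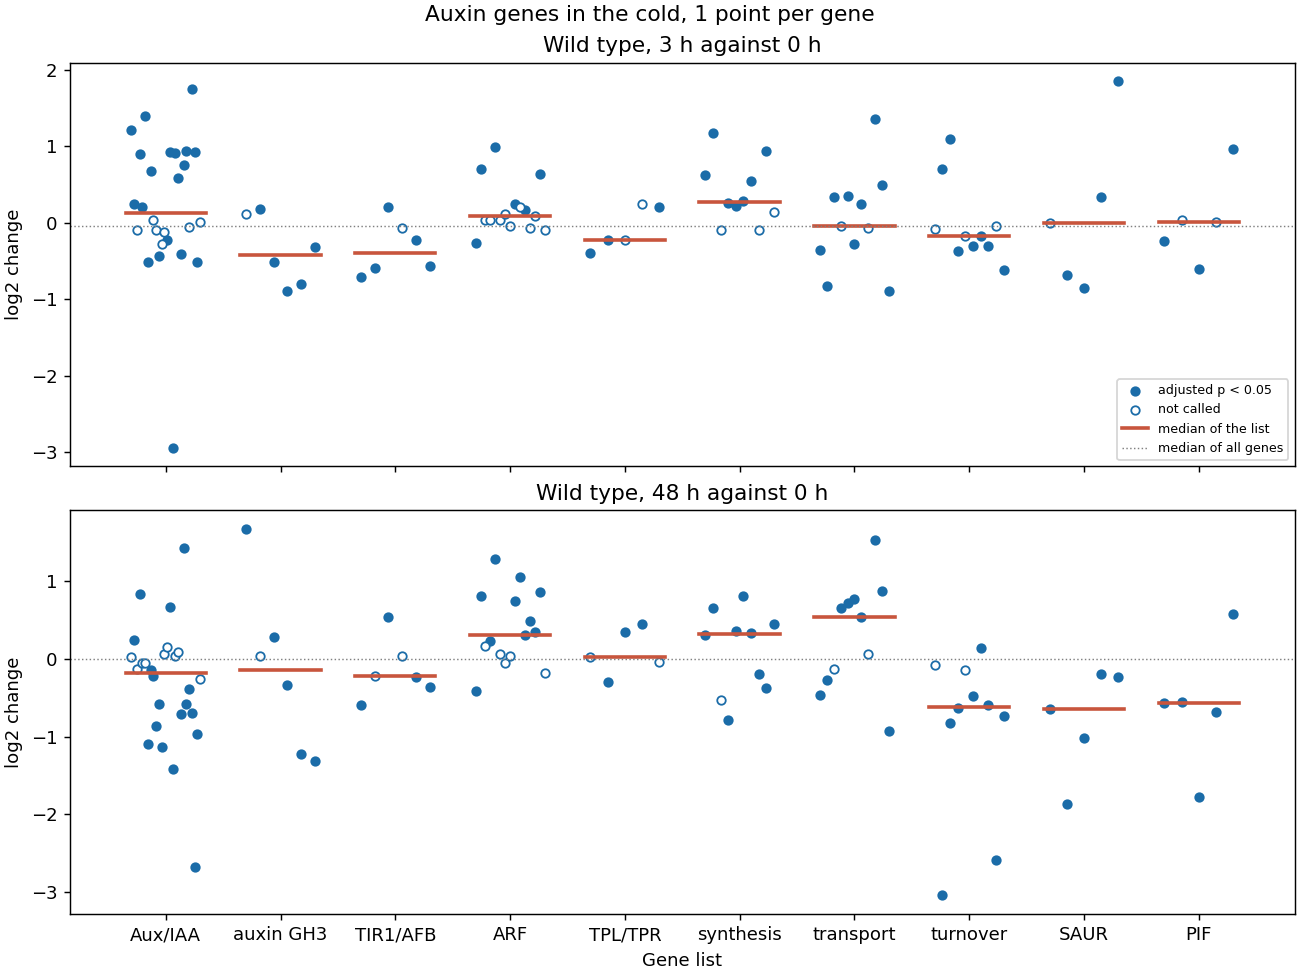
Log2 change in wild type at 3 h (top) and 48 h (bottom) against 0 h, 1 point per gene and 1 column per list, with filled points for a limma adjusted p below 0.05, a red bar at each list's median and a dotted line at the median of all genes. The Aux/IAA genes spread from -2.95 to 1.75 at 3 h, and all 5 SAUR points lie below 0 at 48 h.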

How the data were processed

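Total RNA was hybridised to Agilent 1-colour (Cy3) Arabidopsis arrays, 12 in all, on 5 slides read on 2 scan days. Per the file headers, the authors extracted signals with Agilent Feature Extraction 10.7.1.1 (protocol GE1_107_Sep09), and the deposited files hold each spot's processed signal as an intensity, already background-subtracted. A deposited value table equals the median signal intensity in 11 of 12 columns. The column of the second overexpressor array at 48 h equals that array's median signal at 1.45% of spots, and its source was not tested. The log2 scale is not the deposited one. It was computed here, as log2 of the intensity minus each array's 75th percentile on that scale.

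Control spots and 110 probes flagged as non-uniform were left out. Probes well above background on both arrays of at least 1 group were kept (33198, of which 28841 had a locus). Of several kept probes per gene (8 of the 32 genes tested), the brightest on average was used. Accessions and locus codes were matched to RefSeq genes of assembly TAIR10.1, for names and neighbour order only. The 6 groups were fitted in limma 3.58.1 (R 4.3.3) with lmFit and eBayes over 20806 genes, giving 6 residual and 8.08 total degrees of freedom, with Benjamini-Hochberg adjustment over all genes in each comparison. Standard errors are those of limma. Only 2 arrays a group limit the precision. Genes called with an absolute log2 change of at least 1 in a pair of groups (15) are given array by array. Names of pathway genes were given for up to 4 called members with the largest changes, and others named were chosen after their values were seen.

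The members and the pathway lists were chosen with earlier results of these data known. The alternatives changed the background correction (normexp on the median signal, offset 50), the normalization (quantile), the filter (none, or above background everywhere), the source of the values (the deposited table) and the gene summary (averaging probes). Others added a block (replicate number, slide, scan day, or slide as random effect) or left out 1 array at a time.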

Additional observations from a re-analysis of the deposited data

Results flagged for a closer look

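The cold response at 3 h differed between overexpressors and wild type by limma's test of the difference itself for 6 genes, given as the log2 change in overexpressors minus that in wild type. It was 0.73 for GH3.1 (adjusted p = 0.00718), 0.47 for GH3.2 (adjusted p = 0.0264), -0.48 for IAA6 (adjusted p = 0.0498), -0.44 for IAA29 (adjusted p = 0.0438), -0.31 for IAA5 (adjusted p = 0.0422) and -0.29 for IAA19 (adjusted p = 0.0293). At 48 h it differed for GH3.6, by -0.29 (adjusted p = 0.026), and for IAA33, by 0.36 (adjusted p = 0.0365). GH3.1 alone of these kept its call when any single array was left out, and it lost it under the normexp correction (0.77, adjusted p = 0.164) and with slide as a block (0.73, adjusted p = 0.078).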

How the results depend on the processing

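The cold counts in each genotype stayed within 1.5 times their values under every alternative and every array left out. Single gene results were followed for the 15 genes given array by array and for genes with a called difference of responses, in their called comparisons only. Calls of the other genes were not followed in this way. Of these 109 gene results, 75 kept their call in every alternative that gave a value and 34 lost it in at least 1. Of their 2394 recomputed values, 0 changed direction. The genotype counts depended on the processing and the cause was not tested. The number of genes that differed at 0 h (10) was 6 with the normexp correction and 0 with slide as a block, and leaving out single arrays gave 4 to 12. It was 4 without either overexpressor array at 0 h or without the second wild-type one, and 6 without the first. At 3 h the number (6) was 0 with the normexp correction, 2 with no background filter, 0 with the deposited value table and 0 with slide as a block, and 0 to 5 with single arrays left out, 0 without either wild-type array or the second overexpressor array at 3 h. At 48 h the number (0) was 1 with quantile normalization, with probes above background on all arrays, with the mean of a gene's probes, with slide as a block and with slide as a random block, and 0 to 1 with single arrays left out. Differences of the 3 h response (6) numbered 1 with the normexp correction, 2 with no background filter, 3 with the deposited value table, 3 with scan day as a block and 0 with slide as a block, and 1 to 5 with single arrays left out, 1 without either overexpressor array at 0 h, either wild-type array at 3 h or the second overexpressor array at 3 h. Quantile normalization gave 4 of these, 2 higher and 2 lower. Differences of the 48 h response (2) numbered 0 with the normexp correction, 1 with quantile normalization, 1 with no background filter, 1 with the deposited value table and 0 with slide as a block, and 0 to 3 with single arrays left out. With 1 array left in a group, that array was assumed to vary like the other groups.

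The groups share replicate numbers, but nothing in the labels says what a number marks. The deviations of same-numbered arrays correlated above 0.1 in 5 of 15 pairs of groups (-0.054 to 0.286), so the numbers were not taken as pairing the samples. In wild type, however, each replicate number had its own slide and scan day, so these cannot be told apart there. The pairs of wild-type groups correlated at 0.167, 0.186 and 0.286. With replicate number as a block, 24 genes were called at 3 h and 23 at 48 h in wild type, 24 and 25 in the overexpressors, 11 between genotypes at 0 h, 6 at 3 h and 0 at 48 h, 6 for the difference of the 3 h response and 3 for that of the 48 h response.

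Signal over background limits what can be said of the dim genes. The normexp correction ended 28 of the 109 calls followed, the highest number of any alternative, among them calls of IAA20, IAA33, IAA34, GH3.1 and GH3.2. Slide and genotype overlap on 1 slide only, at 48 h, so at 0 h and 3 h genotype differences and slide differences are separated by few arrays.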
